A study of Mus musculus with 12 samples.

Results

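Abdominal fat of 6 mice that had received adenovirus with a short hairpin RNA (shRNA) against lipocalin 13 (LCN13) was compared with that of 6 mice that had not, 12 arrays in all. The arrays with LCN13 shRNA were all those whose label names that virus, alone (3 arrays) or together with TSC22D4 shRNA virus (3 arrays). The arrays without it were the control group (3 arrays) and the group with TSC22D4 shRNA alone (3 arrays). All mice (BKS.Cg-Dock7m +/+ Leprdb/J) carry the db mutation of the leptin receptor, were 12 weeks old and are labelled WT for genotype apart from the strain. Controls received 4e9 plaque-forming units (pfu) of virus with a control shRNA. The LCN13 and the TSC22D4 groups received 2e9 pfu of their own virus plus 2e9 pfu of control virus, and the combined group received 2e9 pfu of each of the gene-directed viruses and no control virus. Fat was taken 1 week after injection, and 3 animals described as representative were put on arrays out of 7 per group, so the animals were not a random choice. In every comparison of arrays with and without LCN13 shRNA the first received 2e9 pfu less control virus, so a gain of LCN13 shRNA virus and a loss of control shRNA virus cannot be told apart.

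LCN13 is a secreted carrier protein of the lipocalin family, known in mice for improving the response to insulin, and TSC22D4 is a transcriptional regulator studied in liver. The layout, with each virus given alone and together with the other, asks how fat RNA differs with LCN13 shRNA and whether that difference depends on TSC22D4 shRNA. The main group of genes below belongs to the interferon response. Type I interferons are secreted after cells sense foreign nucleic acid, bind a receptor on most cell types and signal to the nucleus, where the response acts through a sequence called the interferon-stimulated response element in the promoters of their target genes. The products of these genes sense RNA or DNA, cut or bind viral RNA, present antigen or restrain the signal itself.

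The tissue and the targets were checked first. The adipocyte hormone gene Adipoq (adiponectin) lay between 12.20 and 12.45 log2 on the 12 arrays and Lep (leptin) between 13.90 and 14.01, on arrays whose median probe set read 6.31 log2 and whose highest read 14.38. Tsc22d4 lay between 7.56 and 7.88 and had an averaged difference with LCN13 shRNA of -0.04 (SE 0.0571, limma adjusted p = 0.82). With its own shRNA the averaged difference of Tsc22d4 was -0.03 (limma adjusted p = 0.835), with group means of 7.68 in control and 7.67 with TSC22D4 shRNA, so no lower level of the target was detected in fat and TSC22D4 status below refers to the virus given. Lcn13, listed under its current symbol Obp2a, lay between 5.71 and 5.79, near the lowest values of the arrays (5.62), with an averaged difference of -0.02 (SE 0.0134, adjusted p = 0.477). The level of Obp2a in fat was too low to check the LCN13 labels, and the labels name no tissue in which the viruses acted. Genes of the male reproductive tract were highest in different single arrays without LCN13 shRNA. Svs5 read 10.24 in TSC22D4 replicate 10 and at most 5.90 elsewhere. Lcn8 read 10.87 in TSC22D4 replicate 11 and 5.96 in TSC22D4 replicate 10.

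The averaged difference is the mean of a pair of comparisons that share no array: LCN13 minus control (the first comparison) and combined minus TSC22D4 (the second comparison). Of 23185 genes, 251 (1.08%) passed an adjusted p under 0.05 for it, 82 higher (0.354%) and 169 lower (0.729%) with LCN13 shRNA. The call needs the fit with 1 mean for each of the 4 groups. A fit with LCN13 and TSC22D4 as additive factors, without their interaction, called 0 genes, with a smallest adjusted p of 0.079 and 1748 genes higher and 1328 lower at an unadjusted p under 0.05. In the first comparison, LCN13 against control, 333 genes passed (1.44%), 92 higher (0.397%) and 241 lower (1.04%). In the second comparison, combined against TSC22D4, 0 genes passed in limma, with a smallest adjusted p of 0.366 and with 828 genes higher (3.57%) and 774 lower (3.34%) at an unadjusted p under 0.05. The comparisons differed from each other, by the interaction test, for 92 genes (0.397%), of which 85 (0.367%) had the higher difference (less negative or more positive) in the presence of TSC22D4 shRNA and 7 (0.0302%) the lower. Leaving out LCN13 replicates 5 and 6, which had more mesothelial and liver RNA than the other LCN13 array (below), left 90 passing genes, 9 higher and 81 lower.

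Promoters of 4 genes among the largest decreases are shown first. A sequence of the interferon-stimulated response element type was frequent among the lower genes with a passing interaction (below). All 4 hold a match and serve as examples, not as a count. Usp18, with an averaged difference of -1.71 against -1.69 for Ifit1, is not shown. The letters searched were GAAANNGAAA on both strands, where N is any base, in windows from 250 bases before to 50 bases after the gene start in RefSeq's GRCm38.p6. The 150 bases before the start of the 4 genes shown are given 5′ to 3′ on the gene's own strand, with the match, or its reverse complement, in capitals. They lie at chr5:120887614-120887763 (Oas1g, minus strand), chr5:120777660-120777809 (Oas3, minus strand), chr1:173599273-173599422 (Ifi213, minus strand) and chr19:34640739-34640888 (Ifit1, plus strand), directly upstream of the annotated gene.
Oas1g: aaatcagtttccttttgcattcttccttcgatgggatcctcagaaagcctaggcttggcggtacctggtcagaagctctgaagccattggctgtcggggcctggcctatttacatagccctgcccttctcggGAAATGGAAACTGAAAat
Oas3: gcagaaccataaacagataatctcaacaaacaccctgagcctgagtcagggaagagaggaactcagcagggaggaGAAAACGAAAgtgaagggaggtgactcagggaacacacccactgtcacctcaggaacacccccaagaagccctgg
Ifi213: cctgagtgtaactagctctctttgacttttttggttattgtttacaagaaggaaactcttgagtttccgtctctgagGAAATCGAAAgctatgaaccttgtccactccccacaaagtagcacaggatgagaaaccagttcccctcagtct
Ifit1: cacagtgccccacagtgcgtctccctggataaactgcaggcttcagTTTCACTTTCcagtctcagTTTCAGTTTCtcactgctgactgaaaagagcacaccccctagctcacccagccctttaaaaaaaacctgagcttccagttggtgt
In Oas1g a pair of matches overlapped, and in Ifit1 both matches were on the opposite strand. Of the 78 lower genes with a passing interaction, 61 had a promoter in the table and 24 of those (39.3%) held the letters. Of the 91 lower genes without a passing interaction the letters stood in 12 of 71 promoters (16.9%), of the 82 higher genes in 1 of 67 (1.49%), and of all tested genes in 678 of 17452 (3.88%). A match describes the sequence and is not a measured binding site.

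Interferon-stimulated genes were lower in all groups that received a gene-directed virus than in control. Of a list of 32 such genes, 30 were measured, and 26 fell in the averaged difference while 0 rose, against 0.729% of all genes falling. Their median averaged difference was -0.88 log2, against 0.00295 for all genes. It was -1.55 between LCN13 and control, where 28 of 30 fell, and -0.196 between combined and TSC22D4, where 0 passed and 12 were lower at an unadjusted p under 0.05, against 3.34% of all genes. For 20 of the 30 the interaction passed. The list's mean, taken relative to the 12 arrays, was 1.20 to 1.5 log2 in the control arrays, -0.40 to -0.30 in the LCN13 arrays, -0.47 to -0.28 in the TSC22D4 arrays and -0.63 to -0.56 in the combined arrays. The control group therefore stood above the other 3 groups, while the TSC22D4 arrays overlapped the LCN13 arrays and lay above the combined arrays. In whole tissue, fewer cells of a type and less RNA per cell cannot be told apart.

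The sensors of double-stranded RNA of the oligoadenylate synthetase family led the list of decreases. Oas1g read 9.91, 10.53 and 9.98 log2 in control, 6.43, 6.48 and 6.32 with LCN13 shRNA, 6.69, 6.38 and 6.86 with TSC22D4 shRNA, and 6.31, 6.50 and 6.33 with both. Only the control arrays were high, and the TSC22D4 arrays overlapped those with LCN13 shRNA. Its averaged difference was -1.997 log2 (SE 0.117, limma adjusted p = 6.81e-05), a 3.99-fold lower level. That average joins -3.73 (adjusted p = 8.17e-06) against control with -0.27 (SE 0.17, unadjusted p = 0.142) on top of TSC22D4 shRNA, and these differed by 3.46 (adjusted p = 0.000409). Oas1g read 6.38 to 6.86 with TSC22D4 shRNA alone, near the array median of 6.31, where differences are compressed. Oas3 fell by 1.79 (adjusted p = 0.000309) in the average, from 9.40 to 10.40 in control to 6.28 to 6.46 with LCN13 shRNA. Oas2, a brighter member, fell by 1.40 (SE 0.111, adjusted p = 0.000339), and it kept a difference of -0.61 (SE 0.16, unadjusted p = 0.00342) between combined and TSC22D4. Probe sets of the Oas, Ifi200 and Slfn families may share signal with near copies, so single members are uncertain.

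Regulators of the response were among the largest decreases and remained well above the array median in all groups. Irf7, a transcription factor that drives interferon genes, read 12.33, 12.69 and 12.55 in control, 10.28, 10.08 and 9.93 with LCN13, 10.08, 9.73 and 9.95 with TSC22D4, and 9.43, 9.25 and 9.15 with both. The combined arrays were below all others, and the LCN13 and TSC22D4 arrays overlapped. It fell by 1.54 in the average (SE 0.0906, adjusted p = 6.81e-05, 2.90-fold), and the difference between combined and TSC22D4 was -0.65 (SE 0.13, unadjusted p = 0.00061, adjusted p = 0.366). Usp18, a protease that restrains interferon receptor signalling, fell by 1.71 (SE 0.108, adjusted p = 9.6e-05), with -0.53 (SE 0.15, unadjusted p = 0.0066) between combined and TSC22D4. Rtp4, a chaperone-like protein induced by interferon, was 10.78, 10.82 and 10.71 in control, 8.62, 8.71 and 8.37 with LCN13, 8.61, 8.37 and 8.69 with TSC22D4 and 7.75, 7.82 and 7.95 with both. All 3 combined arrays lay below all 3 TSC22D4 arrays for Rtp4, by 0.72 (SE 0.1, unadjusted p = 4.86e-05), which was among the smallest p-values of that comparison and did not pass after adjustment. In the average Rtp4 fell by 1.46 (SE 0.0722, adjusted p = 6.81e-05).

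Several effectors of the response also fell. Ifit1, an RNA-binding antiviral protein, had an averaged decrease (fell by 1.69, SE 0.0933, adjusted p = 6.81e-05), from 11.43 to 11.87 in control to 8.47 to 8.82 with LCN13, with 7.93 to 8.24 in the combined arrays. The DNA-binding family members Ifi213 and Ifi209 fell by 1.72 (adjusted p = 0.000101) and 1.68 (adjusted p = 0.00195), and Slfn1 of the Schlafen family by 1.43 (adjusted p = 0.000206). For Ifi213, Oas3 and Slfn1 the differences between combined and TSC22D4 were -0.11, -0.08 and -0.16, with levels of 6.08 to 6.52 log2 in both groups, close to the array median of 6.31, where differences are compressed. Ifit3 (-0.33, adjusted p = 0.127), the chemokine Cxcl10 (-0.57, adjusted p = 0.115) and the immunoproteasome gene Psmb8 (-0.49, adjusted p = 0.0713) did not pass in the average. Leaving out single arrays ended none of the calls of Oas1g, Oas2, Oas3, Irf7, Usp18, Rtp4, Ifit1, Ifi213, Ifi209 and Slfn1, with adjusted p up to 0.00854. The additive fit ended all 10.

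**Figure D1:**
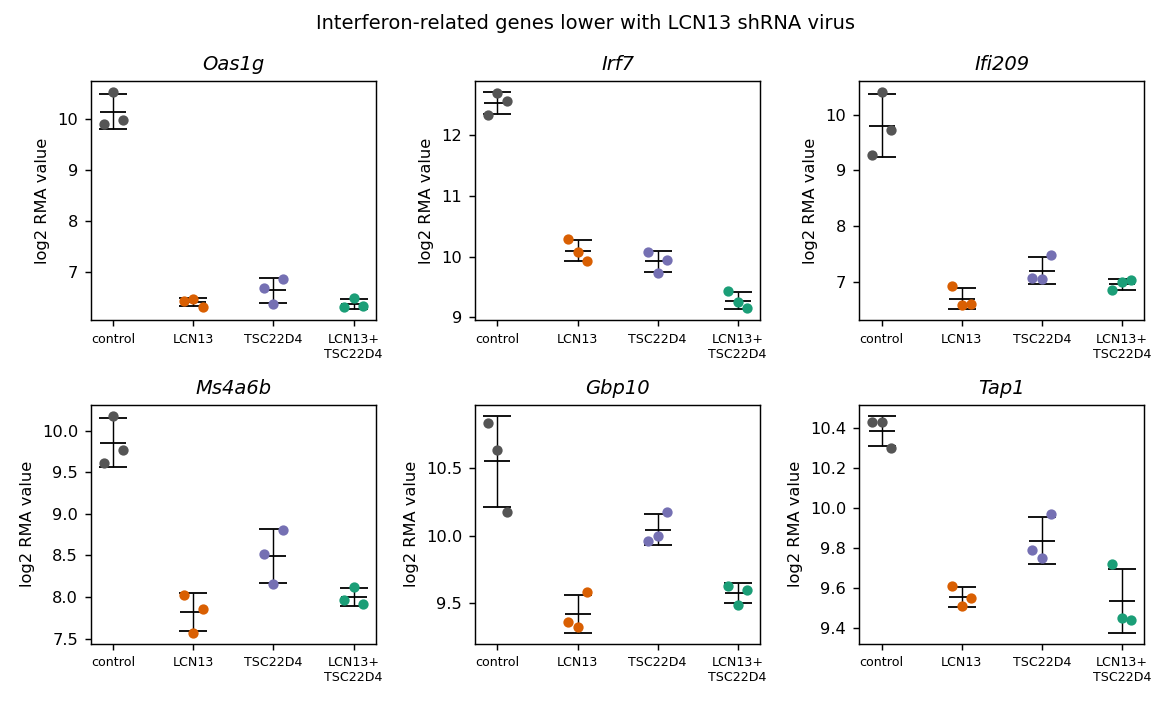
Log2 value on each of the 12 arrays (vertical axis) for 6 lower genes by group (horizontal axis); points are single arrays and the horizontal bars are the group mean and 1 SD above and below it (n = 3). The control mean is highest in each panel. For Ifi209, Ms4a6b, Gbp10 and Tap1 the 6 arrays with LCN13 shRNA lie below all 6 without. The gap is narrow for Ifi209, with 7.04 as the highest array with LCN13 shRNA and 7.05 as the lowest without.

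For some of the lower genes the 6 arrays with LCN13 shRNA lay below all 6 without. This held for 30 of the 169 genes that fell (4 of the 78 with a passing interaction and 26 of the 91 without), against 75 of all 23185 (0.323%). Passing genes had to differ in the same values, so the comparison is a description. Ms4a6b, a membrane protein of immune cells, read 9.61, 10.18 and 9.77 in control, 8.02, 7.57 and 7.86 with LCN13, 8.52, 8.16 and 8.80 with TSC22D4 and 7.96, 8.12 and 7.92 with both. The 6 arrays with LCN13 shRNA did not overlap the 6 without, and the LCN13 and combined arrays overlapped each other. TSC22D4 replicate 11 (8.16) lay just above the highest array with LCN13 shRNA (8.12). It fell by 1.26 (SE 0.134, adjusted p = 0.00206), with -0.49 (SE 0.19, unadjusted p = 0.0282) between combined and TSC22D4.

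Gbp10, an interferon-induced guanylate-binding protein, read 10.84, 10.64 and 10.18 in control, 9.36, 9.32 and 9.58 with LCN13, 9.96, 10.00 and 10.18 with TSC22D4, and 9.63, 9.49 and 9.60 with both. Here the TSC22D4 arrays reached the lowest control array. Gbp10 fell by 0.81 (SE 0.105, adjusted p = 0.00738), with -0.47 (SE 0.15, unadjusted p = 0.0105) in the second comparison. Tap1, which carries peptides to MHC class I, ranged from 9.44 to 9.72 with LCN13 shRNA (median 9.53) and from 9.75 to 10.43 without (median 10.13). It fell by 0.57 (SE 0.0583, adjusted p = 0.00183), with -0.30 (SE 0.083, unadjusted p = 0.00493) in the second comparison. Without LCN13 replicates 5 and 6 the adjusted p was 0.0389 for Tap1, 0.0348 for Ms4a6b and 0.118 for Gbp10.

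Other genes of this set were Epsti1 (-1.02, adjusted p = 0.0125), Ifi35 (-0.69, adjusted p = 0.000206), Bst2 or tetherin, which holds virus particles at the cell surface (-0.63, adjusted p = 0.0146), the antibody receptor and ubiquitin ligase Trim21 (-0.61, adjusted p = 0.0317), the ADP-ribosyltransferase Parp11 (-0.60, adjusted p = 0.0074) and Fbxw17 (-0.45, adjusted p = 0.00141). Aoah, an enzyme of phagocytes that inactivates endotoxin, ranged from 7.30 to 7.68 with LCN13 shRNA and from 7.80 to 8.29 without, a fall of 0.59 (SE 0.0922, adjusted p = 0.0198). Trim21 lost its call without any one of the TSC22D4 or combined arrays (adjusted p up to 0.0861), and Aoah without control replicate 2 or combined replicate 13 (up to 0.0549). Of the tested difference between the LCN13 and TSC22D4 effects, which equals LCN13 against TSC22D4, none of these 7 genes passed (adjusted p from 0.103 to 0.666).

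Some lower genes that are no part of the interferon list are described next. Of the genes above, Oas1g, Ifi213 and Ifi209 were not on that list either. Abi3, an adaptor of the actin machinery found in blood and immune cells, read 8.66, 8.65 and 8.49 in control, 8.21, 8.04 and 8.29 with LCN13, 8.61, 8.65 and 8.79 with TSC22D4, and 8.38, 8.36 and 8.40 with both. The control and TSC22D4 arrays overlapped, and the arrays with LCN13 shRNA lay below both. Abi3 fell by 0.36 (SE 0.0506, adjusted p = 0.011), made of -0.42 and -0.30 (SE 0.072, unadjusted p = 0.00213), and its TSC22D4 difference was 0.14 (adjusted p = 0.215). Fam110c, a microtubule-associated protein, fell by 0.33 (SE 0.0478, adjusted p = 0.0118), with -0.24 (adjusted p = 0.163) in the first comparison and -0.43 (SE 0.068, unadjusted p = 0.000105) in the second. It ranged from 6.52 to 6.76 with LCN13 shRNA and from 6.77 to 7.10 without, a gap of the size of its last decimal. The chromatin silencing gene Resf1 fell by 0.35 (adjusted p = 0.0484) and Dennd1c by 0.44 (adjusted p = 0.0457), both calls that most fits without 1 array ended (10 and 9 of 12). Szrd1 (-0.16, adjusted p = 0.0302) had its difference in the second comparison (-0.29, unadjusted p = 3.77e-05) and -0.04 in the first.

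The 82 higher genes changed little: their median averaged difference was 0.17 log2 and the largest was 0.48, while 28 of the 169 lower genes and 0 of the higher genes changed at least 2-fold. The interaction passed for 0 of the 82, and their median difference was 0.213 between LCN13 and control and 0.143 between combined and TSC22D4. The 6 arrays with LCN13 shRNA lay above all 6 without for 42 of the 82, against 91 of all genes (0.392%). The 82 were chosen by their difference in these same arrays, so that count is a description as well. Their median averaged TSC22D4 difference was -0.0228, against -0.702 for the 78 lower genes with a passing interaction, whose median LCN13 difference was -0.696. LCN13 was also compared directly with TSC22D4, after seeing the data. This contrast shares its LCN13 and TSC22D4 arrays with the averaged difference that chose the genes, so the counts are a description. It passed for 40 of the 82 higher genes, 19 of the 91 lower genes without and 3 of the 78 with a passing interaction, against 239 of all genes (1.03%). That count of 239 was 2, 4, 4, 6 and 8 without LCN13 replicate 5, LCN13 replicate 6, or TSC22D4 replicates 10, 11 or 12, 73 without combined replicate 13, and 0 without LCN13 replicates 5 and 6. It was 582 without LCN13 replicate 8, 319 without control replicate 1 and 1178 with array weights.

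**Figure D2:**
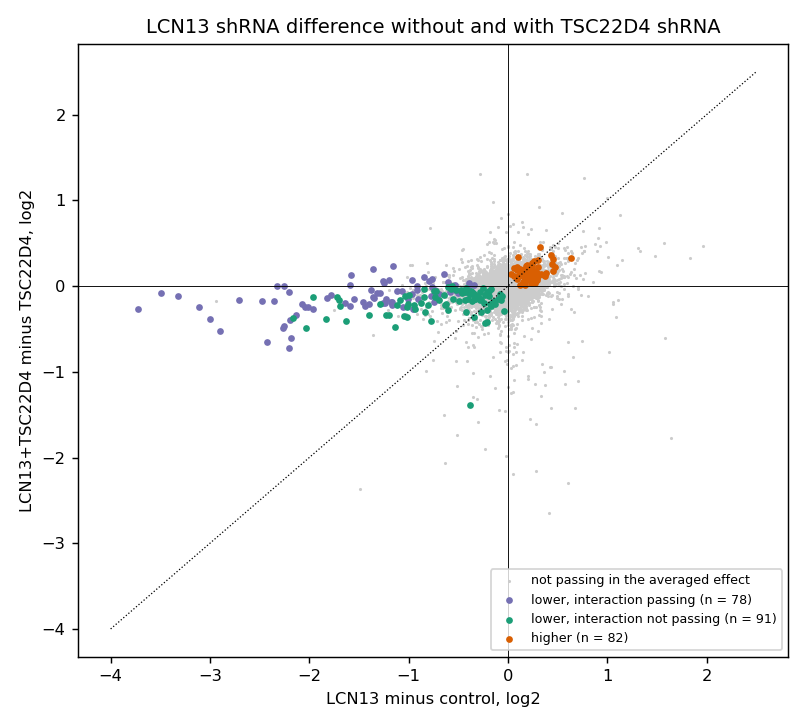
LCN13 minus control (horizontal axis, log2) against combined minus TSC22D4 (vertical axis, log2) for all 23185 genes, with the 251 passing genes coloured by class and the dotted line at equal differences. The 78 lower genes with a passing interaction lie along the horizontal axis (medians -1.27 and -0.114), and the 82 higher genes lie near the dotted line (medians 0.213 and 0.143).

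Several higher genes are given with their values by array or range. Gxylt2, a xylosyltransferase that modifies Notch receptors, read 8.17, 8.05 and 7.98 in control, 8.54, 8.59 and 8.51 with LCN13, 8.23, 8.23 and 8.10 with TSC22D4, and 8.39, 8.52 and 8.32 with both. All arrays with LCN13 shRNA lay above all without, and control and TSC22D4 arrays overlapped. Gxylt2 rose by 0.35 (SE 0.0454, adjusted p = 0.0071, 1.27-fold), made of 0.48 (adjusted p = 0.00589) and 0.22 (SE 0.064, unadjusted p = 0.00689). Tcf21, a transcription factor of visceral preadipocytes and other mesenchymal cells, ranged from 6.83 to 7.02 with LCN13 shRNA and from 6.56 to 6.78 without, and rose by 0.27 (SE 0.0355, adjusted p = 0.0074). Ltbp4, which tethers latent TGF-beta in the extracellular matrix, rose by 0.32 (SE 0.0502, adjusted p = 0.0206), from 10.23 to 10.55 without to 10.60 to 10.84 with LCN13 shRNA. It was the 1 of 25 measured extracellular matrix genes that passed. Eml1, which binds microtubules, had little spread: 7.82 to 7.95 without and 8.00 to 8.31 with LCN13 shRNA, a rise of 0.24 (SE 0.0265, adjusted p = 0.00218), with 0.12 (SE 0.037, unadjusted p = 0.0103) in the second comparison.

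The nuclear envelope gene Syne2 had the same difference in both comparisons, 0.31 and 0.31 (SE 0.068, unadjusted p = 0.00129), and rose by 0.31 (SE 0.0478, adjusted p = 0.0193). The phosphatase Dusp14 rose by 0.38 (SE 0.0578, adjusted p = 0.0155), the bicarbonate transporter Slc4a4 by 0.40 (adjusted p = 0.0467), the Ras-like protein Rasd1 by 0.48 (adjusted p = 0.0461) and the membrane skeleton gene Epb41l4b by 0.28 (adjusted p = 0.029). For these 5 genes some arrays overlapped between the groups. Smaller differences that separated the groups followed: the RNA-binding Sfpq rose by 0.19 (SE 0.0276, adjusted p = 0.0113), the cohesin subunit Smc3 by 0.22 (adjusted p = 0.0268), nucleolin (Ncl) by 0.24 (adjusted p = 0.0495) and the transcription factor Mga by 0.20 (adjusted p = 0.0441). Sfpq read 8.86 to 9.07 with and 8.72 to 8.84 without LCN13 shRNA. Also separated were the scaffold Akap9 (0.21, adjusted p = 0.0444), the ubiquitin ligases Ttc3 (0.19, adjusted p = 0.0441) and Anapc10, a subunit of the anaphase-promoting complex (0.24, adjusted p = 0.0177), Rabgap1l (0.23, adjusted p = 0.011), Usp53 (0.21, adjusted p = 0.0113), Plekha6 (0.35, adjusted p = 0.042) and Zfp808 (0.26, adjusted p = 0.0209). Gabpa, an ETS transcription factor, rose by 0.14 (SE 0.0193, adjusted p = 0.00868), with 0.19 (unadjusted p = 4.86e-05) in the second comparison.

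Fewer of the rises than of the decreases kept their call when arrays were left out. Of the higher genes named here, Gxylt2, Tcf21, Eml1, Rabgap1l, Usp53, Sfpq and Gabpa passed in each of the 12 fits that left out 1 array. Dusp14 lost its call in 1 fit (without TSC22D4 replicate 12, adjusted p = 0.0504), Syne2 and Anapc10 in 3, Zfp808 in 5, Ltbp4 in 6, Smc3 in 7, Epb41l4b in 8, Rasd1, Slc4a4, Akap9, Mga and Ttc3 in 10, Plekha6 in 11 and Ncl in 12. Without LCN13 replicates 5 and 6, 5 of the 82 higher calls and 73 of the 169 lower calls were kept. Among the named genes Eml1 (adjusted p = 0.0178) and Zfp808 (0.0253) then passed, and Gxylt2 (0.111), Tcf21 (0.0996) and Sfpq (0.118) did not. A fit that lets the prior spread follow the level (limma's trend and robust options) called 28 genes higher and 190 lower. Of the 82 higher calls it kept 19, and of the 169 lower calls 146.

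Marker lists whose median was higher with LCN13 shRNA are given here, and their part in the result was not tested. Of 15 mesothelial markers 0 passed, with a median of 0.255 log2 (0.468 in the first comparison and 0.0553 in the second). Their mean relative to the 12 arrays was 0.51, 0.54 and -0.04 in the LCN13 arrays 5, 6 and 8, -0.12 to -0.02 in the combined arrays, and -0.273 to -0.0151 in the arrays without LCN13 shRNA. For the liver markers, of which 0 of 17 passed, the means were 0.24, 0.28 and 0.00 in the LCN13 arrays, 0.31, -0.21 and -0.14 in the combined arrays and -0.225 to 0.0319 without. Alb, an albumin gene of liver, ranged from 8.30 to 11.46 with and from 7.98 to 9.75 without LCN13 shRNA. The 14 fibroblast and preadipocyte markers measured, of which 0 passed, had 0.0771 as their median, and array means of -0.00345 to 0.104 with and -0.166 to 0.0277 without LCN13 shRNA. Smooth muscle and pericyte markers had a median of 0.0775 (0.187 in the first comparison and 0.0418 in the second), with 0 of 10 passing. The 4 red blood cell genes measured had 0.403, with -0.963 to 0.984 in the arrays with and -1.17 to 0.39 in those without LCN13 shRNA. The 82 higher genes also had a long median span of 56757 bases, against 15557 for all genes with a span.

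**Figure D3:**
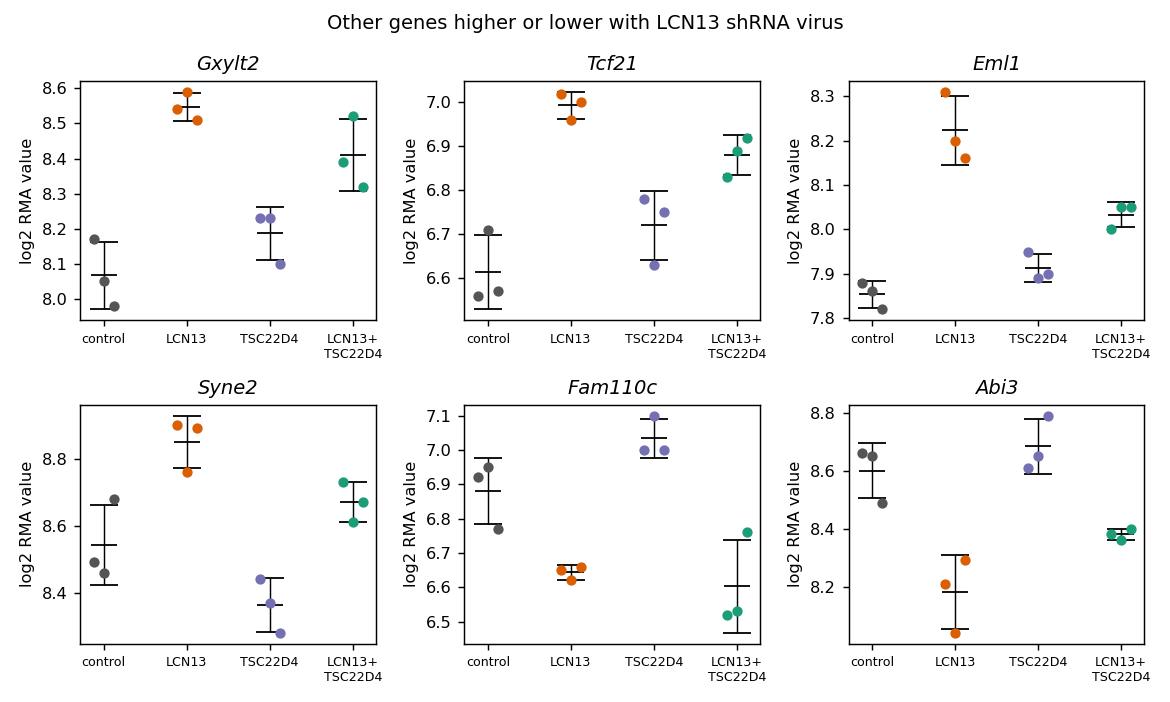
Log2 value on each of the 12 arrays (vertical axis) for 4 higher and 2 lower genes by group (horizontal axis); points are single arrays and the horizontal bars are the group mean and 1 SD above and below it (n = 3). For Gxylt2, Tcf21 and Eml1 the arrays with LCN13 shRNA lie above all without, for Fam110c and Abi3 below, and for Syne2 control replicate 3 overlaps them.

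The comparisons share no array, and genes called in the first were looked up in the second. Their p-values do share a spread estimated from all arrays, so selection in the first also favours small p-values in the second. The percentages at an unadjusted p under 0.05 are therefore a description and not an independent test. Of the 92 genes higher with LCN13 than in control, 73 (79.3%) had a positive difference between combined and TSC22D4, against 53.8% of all genes, and 29 (31.5%) were higher there at an unadjusted p under 0.05, against 3.57%. Of the 241 lower genes, 184 (76.3%) had a negative difference, against 46.1%, and 38 (15.8%) were lower at an unadjusted p under 0.05, against 3.34%. The sizes were smaller in the second comparison, with medians of 0.0659 against 0.265 for the higher and -0.0732 against -0.704 for the lower genes. Across all 23185 genes the differences of the comparisons had a Pearson correlation of 0.259, a description, since genes of the same arrays are not independent.

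For 7 genes the interaction passed with the lower difference in the presence of TSC22D4 shRNA, and 5 of them fall under the naming rule. Des, the intermediate filament protein desmin of muscle, read 9.24, 9.21 and 9.30 in control, 9.63, 9.62 and 9.56 with LCN13, 9.58, 9.61 and 9.47 with TSC22D4 and 9.51, 9.38 and 9.49 with both. Control was lowest and the other 3 groups were near each other, so Des was 0.36 higher with LCN13 than in control (adjusted p = 0.00398) and -0.09 (unadjusted p = 0.0649) between combined and TSC22D4 (interaction -0.45, adjusted p = 0.018). The cytoskeletal linker Plec had 0.30 (adjusted p = 0.00589) and -0.10 (unadjusted p = 0.0388), and Podxl, a mesothelial and endothelial surface protein, 0.49 (adjusted p = 0.00872) and -0.11 (unadjusted p = 0.153). Rab11b, of recycling endosomes, was 8.46, 8.44 and 8.42 with LCN13 against 8.25, 8.21 and 8.32 in control, and 8.07, 8.05 and 8.12 in combined against 8.36, 8.46 and 8.28 with TSC22D4. The groups were ordered in opposite ways in the comparisons, by 0.18 (adjusted p = 0.102) and -0.28 (unadjusted p = 0.000104), and the interaction was -0.47 (adjusted p = 0.0148). Mrto4, a ribosome assembly factor, had 0.32 (adjusted p = 0.0669) and -0.28 (unadjusted p = 0.00255), with an interaction of -0.61 (adjusted p = 0.0387).

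Of the 16 metabolic and inflammatory readouts, 0 passed in the averaged difference. Lep (13.90 to 14.01) and Scd1 (13.82 to 13.93) lay near the highest value of the arrays, 14.38, and whether their signal was saturated was not tested. The difference for Adipoq was 0.02 (SE 0.0518), for Lep 0.01 (SE 0.0144), for the adipocyte regulator Pparg 0.03 (SE 0.0297), and for the lipase Pnpla2 -0.08 (SE 0.0312, adjusted p = 0.31). The lipogenic enzymes Fasn and Scd1 had -0.02 (SE 0.0902) and 0.00 (SE 0.0253), and their regulator Srebf1 0.03 (SE 0.0554), made of 0.25 (adjusted p = 0.214) and -0.18 (unadjusted p = 0.0465). The widest were the insulin receptor substrate Irs2, at 0.52 (SE 0.172, adjusted p = 0.233), with 9.03 to 10.06 with and 8.57 to 9.22 without LCN13 shRNA, and Pck1, the gluconeogenic and glyceroneogenic enzyme, at 0.70 (SE 0.201, adjusted p = 0.166), with 11.23 to 12.25 against 10.84 to 11.72. Both overlapped between the groups. The glucose transporter Slc2a4 had -0.15 (SE 0.148), Irs1 0.04 (SE 0.11), the thermogenic Ucp1 -0.06 (SE 0.0444), the macrophage marker Adgre1 -0.12 (SE 0.0578), Tnf -0.10 (SE 0.0532), Ccl2 -0.25 (SE 0.141) and Saa3 -0.28 (SE 0.225).

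Outside the interferon list, 6 genes of the lists passed. The fatty acid transporter Slc27a1 fell by 0.17 (SE 0.0292, adjusted p = 0.0336), from 11.19, 11.25 and 11.24 in control to 10.90, 10.91 and 10.84 with LCN13, against 10.86, 10.76 and 10.90 with TSC22D4 and 10.81, 10.93 and 10.83 with both. It was lower than control in the other 3 groups, with 0.02 in the second comparison and an interaction of 0.36 (adjusted p = 0.0367). Nampt, the rate-limiting enzyme of NAD salvage, fell by 0.26 (SE 0.0432, adjusted p = 0.0271), made of -0.45 (adjusted p = 0.00636) and -0.06. Cdkn1a, a cell cycle inhibitor on the glucocorticoid target list, fell by 0.21 (adjusted p = 0.0489), made of -0.27 and -0.15. The calls of Slc27a1, Nampt, Cdkn1a and Gzmb were lost in 9, 9, 11 and 9 of the 12 fits without 1 array.

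Markers of immune cells passed singly. Fcgr1, an antibody receptor of macrophages that interferon induces, read 10.51, 11.41 and 11.08 in control and 9.20, 9.09 and 9.21 with LCN13, and fell by 1.11 in the average (SE 0.16, adjusted p = 0.0125). It was the 1 of 21 measured macrophage markers that passed, and the list's median was -0.0896. Gzmb, a granzyme of cytotoxic lymphocytes, was the 1 of 21 T and NK cell markers (-0.25, adjusted p = 0.0327), at dim levels of 5.91 to 6.49. Of 12 neutrophil, 13 B and plasma cell, 9 mast cell and 25 chemokine and cytokine genes 0 passed. The macrophage list's array means were -0.156 to -0.0152 with LCN13 shRNA and -0.112 to 0.292 without.

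**Figure D4:**
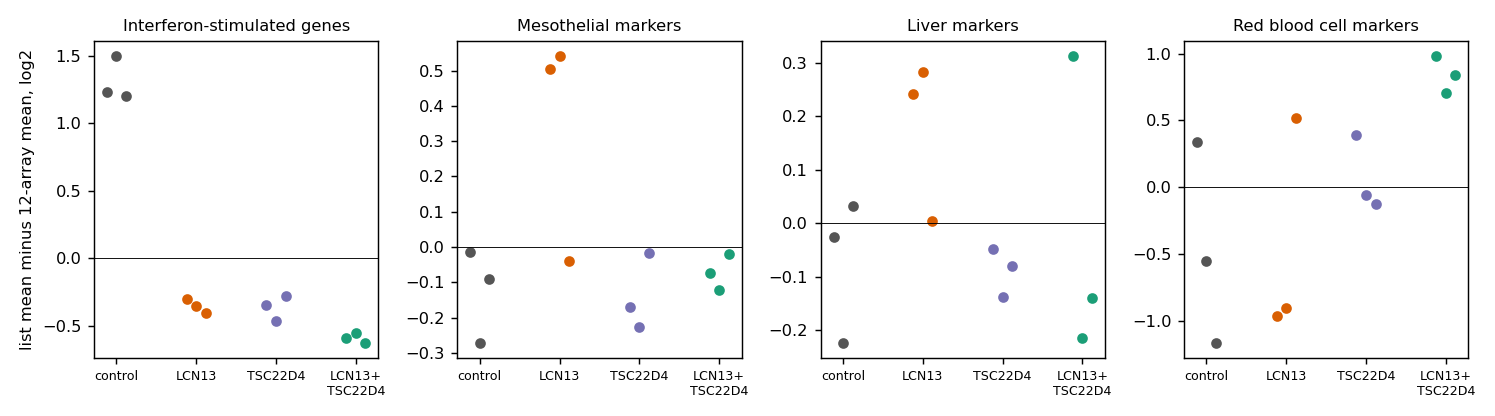
Mean of each list relative to its 12-array mean (vertical axis, log2) for every array by group (horizontal axis). For interferon-stimulated genes the control arrays stand at 1.20 to 1.5 above the other 9; for mesothelial and liver markers LCN13 replicates 5 and 6 are high, for liver markers also combined replicate 13 (0.313), and for red blood cell markers the combined arrays are.

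Lists of fat metabolism held few or no passing genes. The median averaged difference was -0.0521 for 19 genes of de novo lipogenesis, 0.0216 for 11 of lipolysis, -0.0257 for 18 of fatty acid oxidation, -0.0275 for 29 of oxidative phosphorylation, 0.00749 for 21 of insulin signalling and glucose uptake and -0.103 for 19 of cholesterol synthesis, with 0 passing in each. The lipocalin family had 0 of 20 passing (median -0.0155). Circadian clock genes had a median of 0.185, with 0 of 17 passing and 11 positive in both comparisons, against 7696 of all 23185 genes. Negative in both were 19 of 24 cell cycle genes (0 passing), 15 of 21 macrophage markers, 14 of 21 T and NK cell markers and 14 of 25 chemokines and cytokines, against 5844 of all genes. Positive in both were also 15 of 17 liver, 12 of 15 mesothelial and 10 of 14 fibroblast and preadipocyte markers. Members of a list can vary together across arrays, so these counts are a description. Array means of the cell cycle list were -0.119 to 0.112 with and -0.117 to 0.217 without LCN13 shRNA. Those of the clock list were -0.254 to 0.193 and -0.253 to 0.0883, so both lists overlapped. The circadian clock output gene Dbp was 9.87, 9.60 and 9.66 with LCN13 and 10.06, 9.79 and 8.09 with both. It was 7.62, 7.74 and 9.33 in control and 8.21, 9.29 and 9.36 with TSC22D4. Arrays of a group lay far apart for Dbp in control and combined, and its averaged difference of 0.92 (SE 0.42, adjusted p = 0.38) did not pass.

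**Figure D5:**
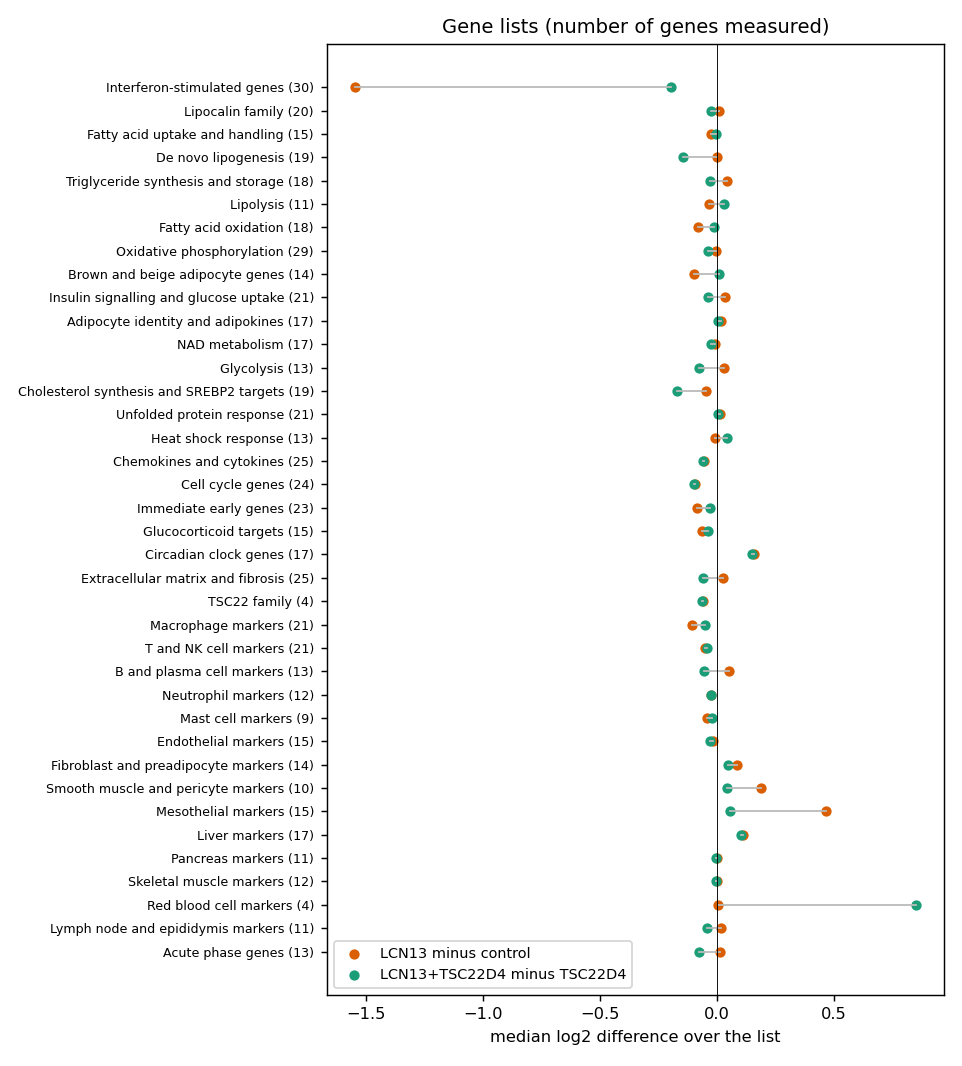
Median log2 difference over the measured genes of each of 38 lists (number of genes beside its name), as LCN13 minus control and as combined minus TSC22D4. The interferon-stimulated list stands at -1.55 and -0.196; the mesothelial list (0.468 and 0.0553) and the 4 red blood cell genes (0.00677 and 0.854) are the other wide pairs.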

How the data were processed

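RNA of abdominal fat was measured on 12 Affymetrix arrays, 3 per group, each a separate animal per the labels. The deposited values, 1 for each probe set, are log2 and come from RMA, which corrects background, normalizes between arrays and summarises probes, as the submitters' processing notes state. Not given in the sources used here are the genome build, how probe sets were defined, and the version and settings of RMA. Sorted columns differed by at most 0.00188, so all arrays share 1 distribution, which removes shifts common to most genes and compresses differences of dim probe sets. Of 25206 probe sets, 23185 had 1 gene symbol, 0 several and 2021 none, and the 23185 were tested without a filter. Within-group correlations of arrays were 0.994 to 0.998. The number of arrays limits the precision.

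Tests were limma 3.58.1 in R 4.3.3 (lmFit with 4 group means, contrasts.fit, eBayes; 8 residual degrees of freedom), two-sided, Benjamini-Hochberg adjusted over all genes within a comparison and called under 0.05; every adjusted p of a gene is from limma, in this fit unless another setting or a left-out array is named. The script was tested on simulated data. The direct comparison of LCN13 with TSC22D4 was added after seeing the data. Members, gene lists and tests were chosen with earlier results of these data known. Genes named were the 10 largest passing changes in each direction, the 15 largest in each direction among passing genes whose arrays did not overlap, up to 4 passing and 2 other members of a list, the 5 leading genes of combined against TSC22D4 and of the interaction in each direction, the targets and 16 readouts; predicted, RNA and chemosensory receptor genes were not named. Promoters are RefSeq's (GRCm38.p6), matched by gene identifier for 17452 genes, and a gene counted as holding the letters if any of its promoters did. Alternatives were an additive model, TSC22D4 status left out, array weights, trended and robust moderation, no dim probe sets, unnamed probe sets included, another centring, fits to 6 arrays, and arrays left out.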

Additional observations from a re-analysis of the deposited data

Results flagged for a closer look

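Single arrays stood apart in 7 of 180 sets of 6 arrays checked (90 genes, with and without LCN13 shRNA), where chance gives about 1 in 20. With LCN13 shRNA, Trim21 was lowest in LCN13 replicate 6 (6.85), Fcgr1 in combined replicate 13 (8.84), and Pparg (12.32) and Dbp (8.09) in combined replicate 16. Without it, Lcn8 (10.87) and Lcn9 (9.96) were high in TSC22D4 replicate 11 and Svs5 (10.24) in TSC22D4 replicate 10; these are genes of the male reproductive tract.

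For 18 named genes the difference with LCN13 shRNA depended on TSC22D4 shRNA by limma's interaction term. Combined minus TSC22D4 was above LCN13 minus control by 3.46 log2 for Oas1g, 3.41 for Oas3, 3.21 for Ifi213, 2.86 for Ifi209, 2.61 for Ifit1, 2.54 for Slfn1, 2.37 for Usp18, 1.78 for Irf7, 1.57 for Oas2, 1.48 for Rtp4, 0.95 for Ifi35, 0.66 for Fbxw17 and 0.36 for Slc27a1. It was below for Rab11b (-0.47), Des (-0.45), Plec (-0.40), Podxl (-0.60) and Mrto4 (-0.61).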

How the results depend on the processing

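The averaged count of 251 genes was 0 with the additive model (smallest adjusted p 0.079) and 0 with TSC22D4 status left out (smallest adjusted p 0.0714; 1488 higher and 1089 lower unadjusted). The 82 higher genes, none with a passing interaction, lost their call in the additive fit as well (adjusted p 0.079 to 0.232), and the cause was not tested. Array weights gave 614 (261 higher, 353 lower), leaving out LCN13 replicates 5 and 6 gave 90, and leaving out 1 array 135 to 389. The lowest of these were 135 without TSC22D4 replicate 12, 146 without TSC22D4 replicate 10, 151 without combined replicate 13 and 154 without LCN13 replicate 6, and the highest was without control replicate 1. LCN13 against control gave 680 with array weights, 102 in a fit of its 6 arrays alone, 100 without LCN13 replicates 5 and 6 and 205 to 426 without 1 array. Combined against TSC22D4 gave 0 in each setting but the fits without 1 array (0 to 4). The interaction gave 35 without LCN13 replicates 5 and 6 and 47 to 104 without 1 array. Genes whose arrays did not overlap numbered 374 without LCN13 replicates 5 and 6 and 213 to 387 without 1 array, fewer arrays having to separate. In fits without LCN13 replicates 5 and 6 the lone LCN13 array is assumed to vary like the other groups. Of the 251 genes, 250 still passed with array weights and 165 with trended, robust moderation. No direction of a named gene that passed was reversed in the settings run. No paired analysis was possible because the replicate numbers differ between groups. The dim level of Obp2a and of several interferon genes outside control limits what can be seen there.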

Other observations

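The 82 higher genes were long. Their median span in the gene table was 56757 bases, against 15557 for all genes with a span and 17797 for the 169 lower genes. Among genes brighter than the median, the 79 higher genes had a median span of 57059 bases and all genes 22915. This comparison was chosen after the values were seen. The mean of the 1426 longest of the genes brighter than the median, relative to the 12 arrays, was 0.00169 to 0.0256 log2 in the 6 arrays with LCN13 shRNA and -0.0298 to -0.00298 in the 6 without, so the arrays did not overlap. Measures of RNA integrity were not used here, and the part of transcript or gene length in the rises was not tested.

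Other genes of the lists had these values without passing in the averaged difference. The preadipocyte marker Dpp4 ranged from 9.57 to 10.10 with and from 9.31 to 9.74 without LCN13 shRNA (0.34, SE 0.0688, limma adjusted p = 0.056). Csf3r, the receptor for granulocyte colony-stimulating factor on neutrophils, ranged from 7.29 to 7.77 and from 7.73 to 7.97 (-0.35, SE 0.0698, limma adjusted p = 0.0526). Acacb, the mitochondrial acetyl-CoA carboxylase, read 9.59, 9.32 and 9.05 in control and 8.75, 8.68 and 8.41 with LCN13 shRNA, a difference of -0.70 (adjusted p = 0.0325), with -0.08 (SE 0.13) between combined and TSC22D4. Angptl8, an inhibitor of lipoprotein lipase that feeding induces, was 10.69, 10.94 and 10.55 with TSC22D4 shRNA and 9.69, 9.10 and 9.93 with both, a difference of -1.15 (SE 0.26) that did not pass. Its averaged difference was -0.39 (limma adjusted p = 0.403), its difference between LCN13 and control was 0.37 (limma adjusted p = 0.634) and the interaction -1.52 (limma adjusted p = 0.243). The chemokine gene Ccl7 had -0.46 (SE 0.122, adjusted p = 0.132), with 10.34, 10.32 and 10.81 in the combined arrays and 10.72 to 11.55 elsewhere.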
